A study of Rattus with 18 samples.

Results

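Rat glomeruli were compared between day 3 and day 2 after an injection of antibody against Thy1, with the 3 arrays titled as killed on day 3 set against the 3 titled as killed on day 2. These are 6 of the series' 18 single-colour arrays. Both groups are glomeruli of rats of strain SD weighing 200 g that had received the anti-Thy1 antibody, and they differ in the labels only by the day. The other arrays, also 3 per group, hold glomeruli from days 1, 4 and 5 after the antibody and from rats given saline (day 0, the controls). Per the series' design text, 3 glomeruli of each of 6 rats were used per time point. The labels do not tie an array to rats, and p-values reflect only how arrays of 1 group vary, a spread that may be technical.

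Anti-Thy1 nephritis is a rat model of injury to the mesangium, the stalk of contractile cells and matrix that carries the capillary loops of the glomerulus. The antibody binds Thy1 on the surface of mesangial cells and complement lyses them. Macrophages then enter the tuft, surviving mesangial cells divide and repopulate it, and matrix is laid down before the lesion heals. Day 3 against day 2 asks how glomerular transcripts differ over a single day early in this course.

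The 2 days were scanned on different days. Days 0, 1, 3 and 5 were scanned on scan day 1, and days 2 and 4 on scan day 2. The 3 day 2 arrays shared slide 4 with an array of day 4. Of the day 3 arrays, replicates 2 and 3 lay on slide 2 with 2 arrays of day 1, and replicate 4 lay on slide 3 with the 3 arrays of day 5. No slide held both days. The time after the antibody therefore cannot be told apart from scan day or slide within these 6 arrays, and 3 other differences are given beside the results. Days 1 and 5 minus day 4 spans the 2 scan days and uses none of the 6 arrays. Day 3 minus day 1 lies within scan day 1 and day 4 minus day 2 within scan day 2; they share the day 3 and the day 2 arrays, respectively, with the comparison.

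The 6 arrays were alike in signal. Their 75th percentiles of signal ranged from 316.3 to 408.2, from 26123 to 26693 of 41012 probes (63.7% to 65.1%) were well above background, and no probe was saturated. Over 21786 probes that every array of the series measured above background (probes are not replicates), Pearson correlations lay between 0.9836 and 0.9911 within day 2, between 0.9761 and 0.9888 within day 3, and between 0.9721 and 0.9861 across the 2 days. Levels below are log2 processed signal minus the 75th percentile of the array, so that a level of 0 equals that percentile. Of 29 podocyte markers listed, 27 were measured, and Foxd1 and Dach1 were not. Genes entered only if well above background on all 3 arrays of at least 1 day, which favoured high counts here. All 27 were well above background on all 6 arrays, as were 20017 of the 23184 genes tested. So were all 24 markers of the proximal tubule, a segment outside the glomerulus, whose part in the results was not tested. In tissue samples such as these, more cells of a type cannot be told apart from more RNA per cell.

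Of 23184 genes and transcripts tested with limma, 75 (0.323%) differed between the 2 days at an adjusted p under 0.05. On day 3, 18 were higher (0.0776%) and 57 lower (0.246%), and none of the 75 overlapped between the arrays of the 2 days. The smallest adjusted p was that of Krt72, a keratin of the inner root sheath of hair. Its level was -2.56, -2.97 and -2.75 on the day 2 arrays and -7.10, -6.99 and -7.04 on the day 3 arrays, where it was not well above background. It was thus at least 3.99-fold lower on day 3, a bound set by the lowest signal well above background on each day 3 array (adjusted p = 2.56e-06, n = 3 arrays a day). Rps26, a protein of the small ribosomal subunit, stood at 2.75, 2.71 and 2.44 on day 2 and at 0.12, -0.42 and -3.1 on day 3. It fell by 3.77 ± 0.58 on the log2 scale (SE, adjusted p = 0.0142), with replicate 4 of day 3 far below the other two. Rps26 has near-identical copies in the genome, so that its probe may read more than 1 locus.

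Tsg101, a subunit of the ESCRT-I complex that sorts cargo into multivesicular bodies, stood at -1.82, -1.73 and -1.88 on day 2 and at -4.01, -4.12 and -5.86 on day 3, where 2 of 3 arrays were well above background (-2.85 ± 0.40, adjusted p = 0.00655). Tob1, an antiproliferative protein that recruits the deadenylase complex to mRNAs, stood at 0.89, 0.97 and 1.11 on day 2 and at -0.61, -0.45 and -0.92 on day 3. It fell by 1.65 ± 0.22 (3.14-fold, adjusted p = 0.00608) and every day 3 array lay below 0. Spint2, a Kunitz inhibitor of serine proteases, fell by 1.46 ± 0.21 (0.0107), and the copper importer Slc31a1 by 1.54 ± 0.28 (0.0397). Slc45a3, a solute carrier, fell by 1.91 ± 0.28 (0.00946), and Usp4, a deubiquitinase, by 1.68 ± 0.27 (0.0176). Further falls were seen in the tyrosine phosphatase Ptpn12 (-1.86, adjusted p = 0.0488) and the potassium channel subunit Kcng1 (-2.06, 0.0303). Ptpn12 was well above background on 2 of 3 day 3 arrays. The zinc finger gene Zfp2 also fell (-1.56, 0.0434). Cox7c, a subunit of cytochrome c oxidase, fell by 1.32 ± 0.24 (0.0319) on the brighter of its 2 probes, and the other stood at 0.28. A few genes with low signal also fell: the odorant receptor Or7g89 (at least 1.40-fold), Prl6a1 of the placental prolactin family (at least 2.30-fold), and the cannabinoid receptor Cnr1, which was well above background on 1 of 3 day 2 arrays and on no day 3 array and for which no bound above 1 could be given.

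Of the 18 rises, 10 were of genes with a current symbol. Il2rg, the common chain of the receptors for interleukin 2 and related cytokines, stood at -1.93, -2.02 and -2.05 on day 2 and at -1.04, -0.96 and -1.08 on day 3. It rose by 0.97 ± 0.13 (1.96-fold, adjusted p = 0.0065), and its 3 day 3 arrays lay above all 15 other arrays of the series, a pattern that 0.815% of all genes showed. Of the 75, 2 lay lower on day 3 than on all 15 other arrays (0.323% of all genes), 4 were highest on the day 2 arrays (0.492%) and 4 lowest on them (0.759%), the last including Or10d1 and Tekt4. The endocytic kinase Aak1 rose by 1.23 ± 0.22 (0.0303), Rgs11, a regulator of G protein signalling, by 0.92 ± 0.18 (0.0465), and Polr2b, the second-largest subunit of RNA polymerase II, by 0.68 ± 0.13 (0.0465). The rest of the named rises were in genes not usually tied to the glomerulus. They were the endocrine transcription factor Neurog3 (2.18, well above background on 1 of 3 day 2 arrays), the airway secretoglobin Scgb1a1 (1.45), the ciliary tektin Tekt4 (1.01), the odorant receptor Or10d1 (at least 1.46-fold) and Ly6g6d (at least 1.63-fold).

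How many genes passed depended on single arrays. Without day 2 replicate 4 there were 1 higher and 6 lower, without day 2 replicate 2 there were 5 and 11, without day 2 replicate 3 there were 5 and 16, and without day 3 replicate 4 there were 9 and 24. Without day 3 replicate 3 the counts were 20 and 37, and without day 3 replicate 2 they were 13 and 50. Among the 75 genes, 6 passed in all 6 of these fits, Krt72 and Or7g89 among them, and 19 passed in none, with Polr2b, Zfp2, Or10d1 and Ly6g6d among these. Tsg101, Slc45a3, Tob1, Spint2 and Il2rg failed only without day 2 replicate 4, at -2.88, -1.89, -1.59, -1.39 and 0.94. All 75 kept their direction in each of the 6 fits, which was fixed beforehand because their arrays did not overlap between the days. The split also moved with the scaling and the weighting of arrays, to 16 higher and 152 lower when scaled to the reference genes and to 923 and 865 with array weights. Day 3 replicate 4 was the day 3 array farthest from day 2 in 49 of the 75 genes (65.3%), and in 36.2% of the 5225 genes that did not overlap between the days but did not pass.

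**Figure D1:**
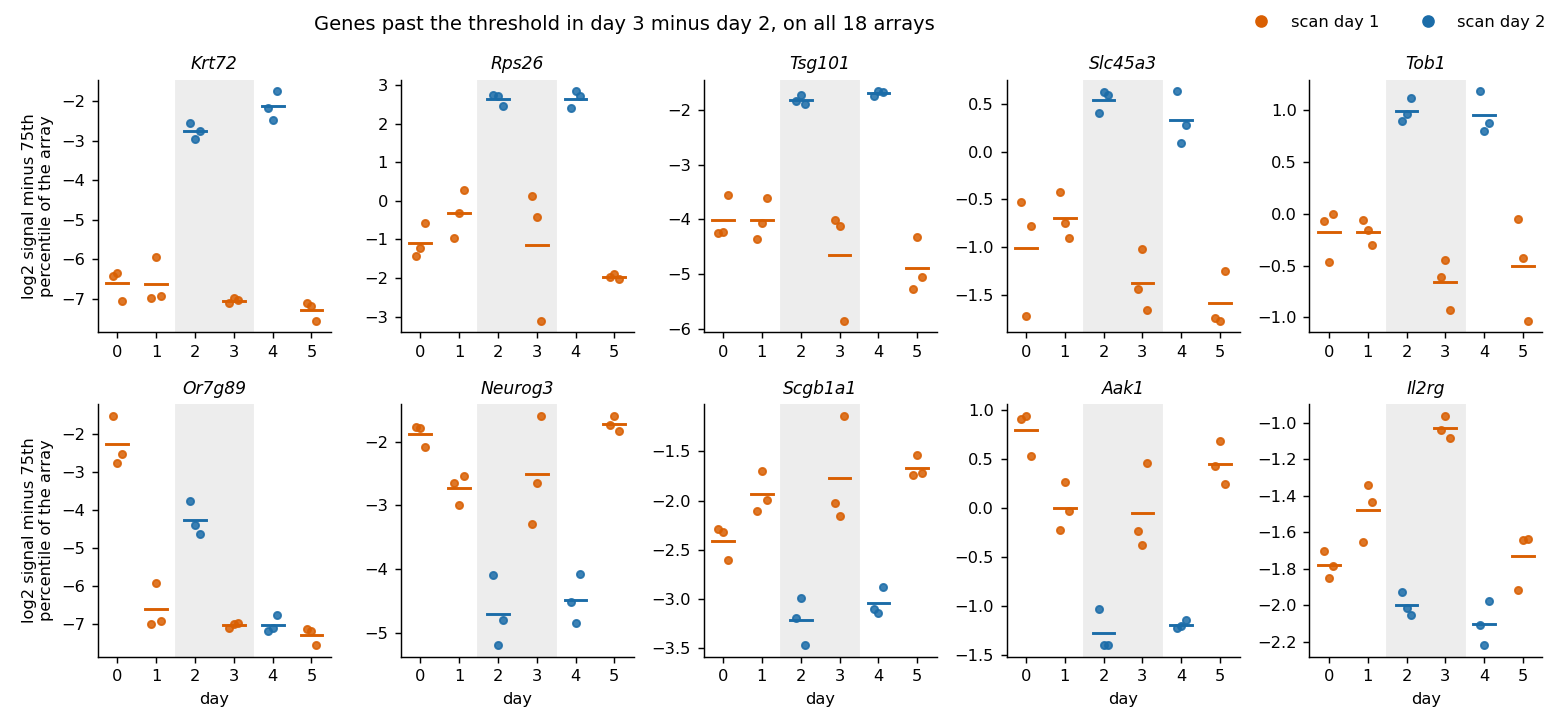
Levels (log2 signal minus the 75th percentile of the array, y axis) of 10 genes past the threshold, on all 18 arrays by day (x axis), with points for arrays, bars for day means, colours for the scan day and grey shading for the days compared. Krt72, Rps26, Tsg101, Slc45a3 and Tob1 had higher means on days 2 and 4 than on days 0, 1, 3 and 5; Or7g89 was low on day 4, and Il2rg was highest on day 3.

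Most of the 75 genes also differed between the arrays of the 2 scan days that are not in the comparison. In days 1 and 5 minus day 4, 72 of the 75 had the same sign as in day 3 minus day 2 (18 of 18 higher and 54 of 57 lower), against 57.0% of all genes tested. The arrays did not overlap there in the same direction in 59 of the 75, 13 higher (6% of all genes) and 46 lower (7.1%). There 55 of the 75 passed the threshold in the same direction, 12 higher and 43 lower, and 1 without a current symbol passed in the opposite direction. These 55 are 73.3% of the 75 and 6.34% of the 867 genes that passed in that difference (312 higher, 1.35%, and 555 lower, 2.39%). The median difference of the 18 higher genes was 1.29 in the comparison and 0.99 in the outside arrays, and that of the 57 lower genes was -1.46 and -1.16. On 1 of the 2 days, 20 of the 75 were dim on every array (not well above background), Krt72 among them, and these medians hold their fitted differences, which are not measured sizes. Rps26 stood at -3.77 and -3.79 in the 2 differences, Tsg101 at -2.85 and -2.76, Tob1 at -1.65 and -1.29, and Aak1 at 1.23 and 1.42.

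Within a scan day the same genes differed little. The median size of their difference was 0.21 in day 4 minus day 2 and 0.28 in days 1 and 5 minus day 3. For all genes it was 0.24 and 0.21. These differences share the day 2 and the day 3 arrays, respectively, with the comparison. In day 3 minus day 2, by which the 75 were chosen, the median size was 1.42 against 0.22, which follows from that choice. Of the 75, 1 passed in day 4 minus day 2, Or7g89, and 0 passed in days 1 and 5 minus day 3, where 9 of all genes passed and 3488 had an unadjusted p under 0.05. Or7g89 did not pass in the outside arrays (adjusted p = 0.923), and its mean level was -6.61, -7.02 and -7.29 on days 1, 4 and 5. On day 0 it was -2.28, above the day 2 mean of -4.27. Of the named genes, Polr2b (0.21), Tekt4 (0.18), Or10d1 (0.52) and Ly6g6d (0.38) also did not pass in the outside arrays, though each had the same sign there. Il2rg passed there at 0.50 (0.0289), and its day 3 level stood 0.45 above day 1 within scan day 1 (0.184). For all 75 genes, day 3 against day 2 and scan day cannot be told apart. Besides the 55, 6 higher and 11 lower genes had the same sign in the outside arrays without passing, with medians there of 0.30 and -0.57. The other 3, all lower on day 3, had the opposite sign there.

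**Figure D2:**
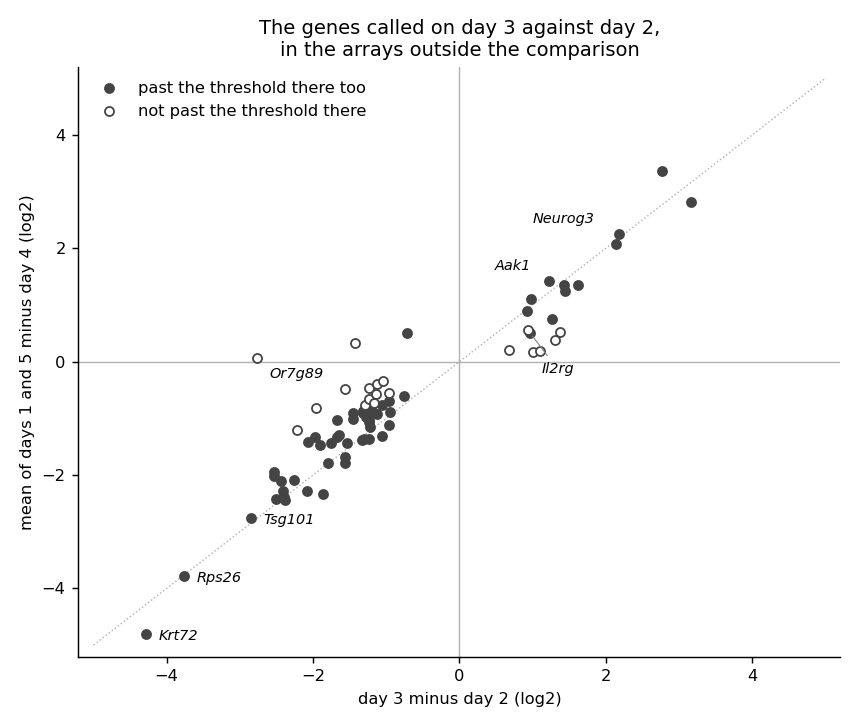
The 75 genes past the threshold, by their log2 difference in day 3 minus day 2 (x axis) and in days 1 and 5 minus day 4 (y axis), 9 arrays that are not in the comparison. Filled points passed the threshold there too, and 1 of these lies in the opposite quadrant; the dotted line marks equal differences, and Or7g89 lies near 0 on the y axis, while positions of genes dim on 1 side of a difference, such as Krt72, are fitted values.

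The 8 probes for spike-in RNAs that were well above background on the 6 arrays, on the same scale and so relative to the 75th percentile of the rat probes, differed by between -0.32 and 0.10 in day 3 minus day 2, with a median of -0.04. In days 1 and 5 minus day 4 they differed by between -0.013 and 0.55, and 7 of the 8 were positive. With the genes split into 5 equal groups by level, the median difference was -0.06 in the dimmest group and 0.05 in the brightest. The dimmest group held 5 of the 18 higher and 23 of the 57 lower genes.

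Below the threshold, the genes of 30 lists were described by the median log2 difference of their measured members and by how many did not overlap between the 3 day 3 and the 3 day 2 arrays. Some genes belong to several lists, such as Plvap to the mesangial and endothelial lists and C1qc to the macrophage and complement lists. Over all genes the median was -0.00, 12.8% lay higher without overlap and 10.1% lower, and 5.34% and 5.77% had an unadjusted p under 0.05 in each direction. Of the members of all lists, Cox7c was the only one past the adjusted threshold. Besides a set of 13 genes, the members named below had the smallest p of their list, which favours lack of overlap.

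Genes of the interferon response had the highest median among the lists. All 25 measured members stood higher on day 3 (median 0.82), 19 without overlap (76%), and 10 had an unadjusted p under 0.05, while 0 passed after adjustment. Gbp2, a guanylate-binding GTPase, stood at 3.94, 4.14 and 3.78 on day 2 and at 4.81, 4.94 and 5.13 on day 3 (1.01 ± 0.39, adjusted p = 0.328). Irf1, a transcription factor of the response, stood at -1.30, -1.42 and -2.04 on day 2 and at -0.58, -0.92 and -0.65 on day 3 (0.87 ± 0.28, 0.242). Tap2, which carries peptides to MHC class I, differed by 0.82 ± 0.26 (0.239). All 3 genes were higher on every day 3 array than on any day 2 array, but they were named for a small p, which favours this. The list's median was 0.95 in day 3 minus day 1 (25 of 25 members positive), 0.29 in the outside arrays, and -0.38 in day 4 minus day 2, so that the members also stood higher on day 3 than on day 1 of the same scan day.

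Most members of the lists of MHC class II and of chemokines also stood higher. Of 6 MHC class II genes, 5 were higher without overlap and Ciita, the master regulator of the class, was lower without overlap (median 0.63). The class II median was 0.60 in day 3 minus day 1, 0.15 in day 4 minus day 2 and -0.39 in the outside arrays (1 of 6 positive). RT1-DMa, which loads peptides onto class II, stood at 1.92, 2.08 and 1.77 on day 2 and at 2.76, 2.57 and 2.86 on day 3 (0.81 ± 0.33, adjusted p = 0.358). RT1-Db1, a class II beta chain, differed by 0.92 ± 0.42 and the invariant chain Cd74 by 0.52 ± 0.33, while Ciita differed by -0.76 ± 0.30 (0.355). Ciita stood at -1.72 in the outside arrays, a larger difference of the same sign between the scan days. Unlike the other 5 genes, Ciita was not well above background on every one of the 6 arrays. Its differences are therefore fitted values, not measured sizes, and in day 3 minus day 2 they ranged from -0.88 to -0.14 under the alternatives. Of 20 chemokine, cytokine and adhesion genes, 15 were positive (median 0.29). Without overlap, 4 were higher and 2 lower (20% and 10%, against 12.8% and 10.1% of all genes). Within scan day 1 this list did not stand higher, with a median of -0.14 in day 3 minus day 1 (8 of 20 positive). Its median was -0.53 in day 4 minus day 2 and 0.44 in the outside arrays. Cxcl10, a T cell chemokine, stood at 1.01, 1.05 and 1.26 on day 2 and at 1.94, 2.24 and 2.82 on day 3 (1.23 ± 0.43, 0.277). Ccl2, the monocyte chemokine, stood at 1.77, 1.74 and 2.41 on day 2 and at 2.97, 3.00 and 2.63 on day 3 (0.89 ± 0.47, 0.51). Neither chemokine overlapped between the days, and within scan day 1 Cxcl10 stood at 1.38 and Ccl2 at -0.80 in day 3 minus day 1.

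Macrophage markers stood higher on day 3 in 20 of 21 measured members (median 0.61), 9 of them without overlap. The phagocyte glycoprotein Cd68 stood at 2.88, 3.07 and 2.03 on day 2 and at 2.87, 2.80 and 4.03 on day 3 (0.57 ± 0.56, adjusted p = 0.746), so that its groups overlapped. The inhibitory Fc receptor Fcgr2b stood at -0.73, -0.71 and -0.71 on day 2 and at 0.07, -0.21 and -0.17 on day 3 (0.61 ± 0.25, 0.37). The complement subunit C1qc (1.18 ± 0.75), the macrophage surface protein Adgre1 (0.98 ± 0.53) and the endotoxin co-receptor Cd14 (0.64 ± 0.28) did not overlap either. The summed level of the list on an array, on the log2 scale, lay between 7.51 and 8.33 on day 2 and between 8.57 and 8.85 on day 3. Of its 24 genes, Cd163, Marco and Ccr2 did not pass the filter on dim probes. In the outside arrays the list's median was 0.45, with 16 of 21 members positive. The list stood 1.19 lower on day 4 than on day 2 and 0.50 higher on day 3 than on day 1. The interferon list's medians had the same signs as this list's in both of these differences. The class II median was 0.15 in day 4 minus day 2 and the chemokine median -0.14 in day 3 minus day 1, each of the opposite sign. The part of the macrophage list in the interferon, class II and chemokine differences was not tested. Markers of T, B and NK cells had a median of 0.44, with 12 of 14 positive. Of these markers, 3 were higher without overlap (21.4%, against 12.8% of all genes). In the outside arrays their median was 0.60, with all 14 positive. The cytotoxic protease Gzmb stood at 1.00 ± 0.76 and the B cell receptor subunit Cd79b at 0.98 ± 0.62 in day 3 minus day 2. Of 14 neutrophil markers 6 were measured, 3 of them positive and none without overlap (median 0.11).

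Complement genes held the smallest p of the lists after Cox7c. C6, a component of the membrane attack complex, stood at -3.41, -2.88 and -2.85 on day 2 and at -1.48, -0.79 and -0.15 on day 3 (2.24 ± 0.48, adjusted p = 0.0671). It stood at 1.49 in the outside arrays and at 0.08 in days 1 and 5 minus day 3. Of 19 measured members, 8 were higher and 1 lower without overlap (median 0.45). C2, of the classical pathway, differed by 1.56 ± 0.57 (0.295), with day 3 replicate 4 at 1.45 and the other two at -0.35 and 0.09. C4a stood at -1.02, -0.44 and 0.74 on day 3 against 0.96, 0.65 and 0.73 on day 2 (-1.02 ± 0.34, 0.251) and overlapped through replicate 4.

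**Figure D3:**
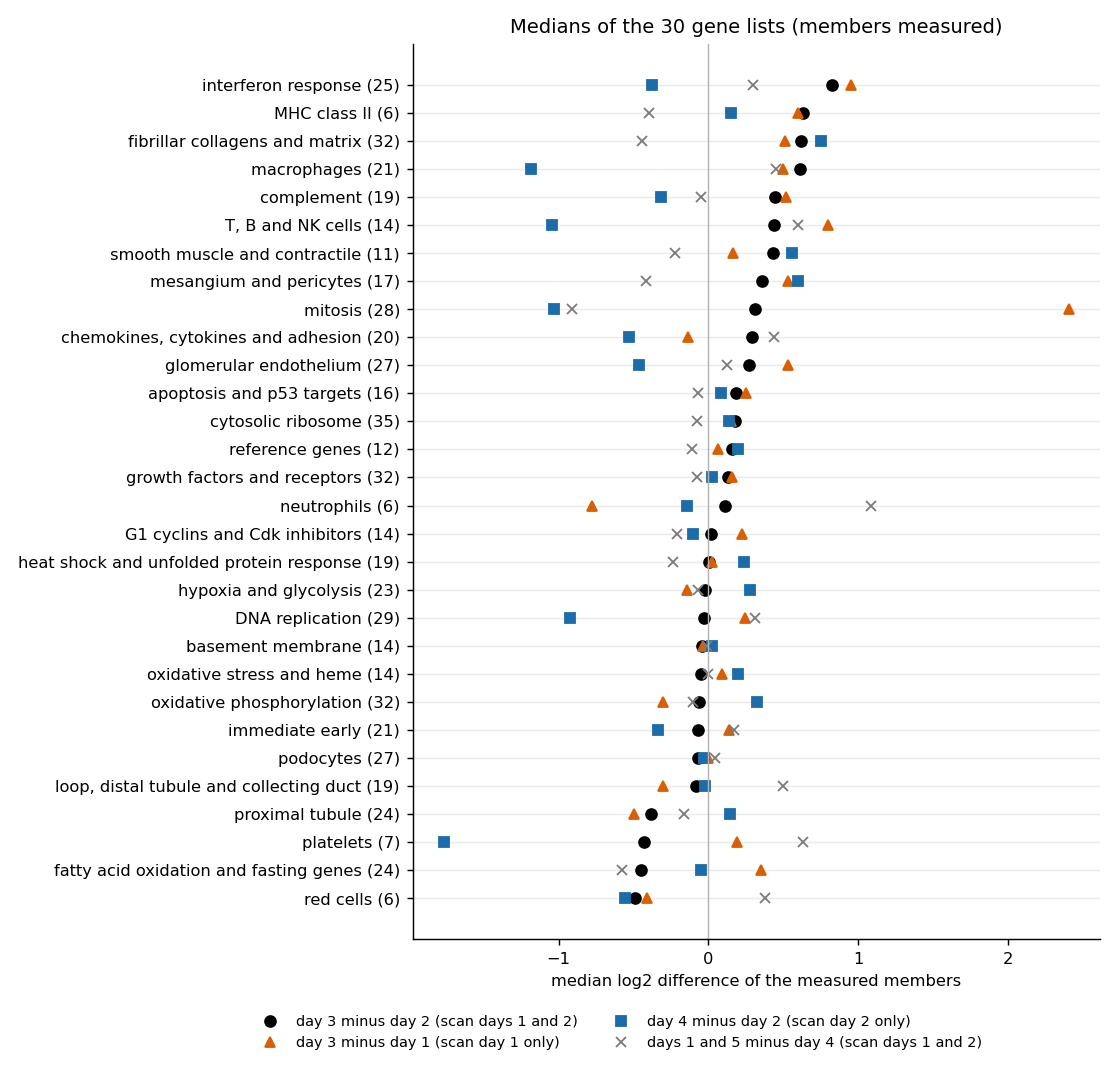
Median log2 difference of the measured members (x axis) of the 30 gene lists, with the number of members measured in brackets, in day 3 minus day 2 (circles), day 3 minus day 1 (triangles), day 4 minus day 2 (squares) and days 1 and 5 minus day 4 (crosses). The interferon, matrix, mesangial and contractile lists stood above 0 in the first 2 differences; the matrix, mesangial and contractile lists stood below 0 in the last and the interferon list above it.

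Genes of the matrix stood higher on day 3 as a list. Of 32 measured members, 29 were positive (median 0.62), 20 were higher without overlap (62.5%) and 0 lower, and 8 had an unadjusted p under 0.05. Col6a1, a chain of the microfibrillar collagen VI, stood at -2.14, -2.49 and -2.32 on day 2 and at -1.04, -1.12 and -1.50 on day 3 (1.10 ± 0.45, adjusted p = 0.375). Col6a2, its partner chain, differed by 0.66 ± 0.24 (0.288) and Plod2, a hydroxylase that prepares collagen for cross-linking, by 0.47 ± 0.20 (0.404), its second probe standing at -0.14. Fibronectin, Fn1, stood at 2.35, 2.42 and 2.59 on day 2 and at 3.19, 2.67 and 3.07 on day 3 (0.52 ± 0.47, 0.714), without overlap. Col12a1, a collagen found on fibril surfaces, differed by 1.61 ± 0.57 (0.281), with day 3 replicate 4 at -0.13 and the other two at -2.70 and -2.83. Col1a1, the main chain of collagen I, overlapped, at 3.49, 2.80 and 2.83 on day 2 and at 4.56, 3.49 and 2.28 on day 3 (0.40 ± 0.99), and stood at -0.16 without day 3 replicate 2. The list's median was 0.75 in day 4 minus day 2 and 0.51 in day 3 minus day 1, each within a scan day, and -0.44 in the outside arrays. The outside difference holds both time and scan day, which cannot be told apart in it.

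Mesangial genes showed the same order of signs. Thy1, the target of the antibody, stood at -1.63, -2.51 and -1.64 on day 2 and at -0.17, -0.34 and -1.12 on day 3 (1.38 ± 0.59, 2.60-fold, adjusted p = 0.393). Mgp, an inhibitor of calcification that mesangial cells make, stood at 6.76, 6.50 and 7.35 on day 2 and at 8.79, 8.48 and 7.78 on day 3 (1.48 ± 0.44, 0.2), and the transcriptional cofactor Fhl2 at -1.36, -1.56 and -0.36 and then at 0.91, 0.35 and 0.02 (1.52 ± 0.53, 0.268). None of these 3 genes overlapped between the days, though Mgp and Fhl2 were named for a small p, which favours this. Over the course of the series the mean level of Thy1 was -0.09 on day 0, -3.34 on day 1, -1.92 on day 2, -0.54 on day 3, 0.28 on day 4 and -0.66 on day 5. Pdgfrb, the receptor through which PDGF drives mesangial cells to divide, differed by 0.77 ± 0.39 (0.491) without overlap. The mesangial integrin Itga8 overlapped and stood at -0.09 ± 0.48, with its 3 probes between -0.09 and 0.42. Of 17 measured members of the list, 10 were positive (median 0.36) and 8 were higher without overlap. The median level of the list on an array went the other way, from a mean of 0.35 on day 2 to 0.18 on day 3, while its summed level lay between 7.03 and 7.70 on day 2 and between 8.11 and 8.96 on day 3. The list's median difference was 0.60 in day 4 minus day 2, 0.53 in day 3 minus day 1 and -0.42 in the outside arrays.

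Contractile genes, which mesangial and smooth muscle cells share, had a median of 0.43 over 11 measured members, 6 of them higher without overlap. Tagln, an actin-binding protein, stood at 2.30, 2.10 and 2.36 on day 2 and at 4.01, 3.99 and 3.74 on day 3 (1.66 ± 0.88, adjusted p = 0.508). The groups did not overlap. Desmin, Des, which is in this list and in the mesangial one, stood at 1.86, 1.82 and 1.91 on day 2 and at 2.96, 2.91 and 2.66 on day 3 (0.98 ± 0.31, 0.221), and was also high on day 1 (2.75) and day 5 (2.74). The myosin heavy chain Myh11 (0.43) and the actin regulator Cald1 (0.69) each had a second probe of the opposite sign (-0.31 and -0.12). The array carries no probe named Acta2.

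**Figure D4:**
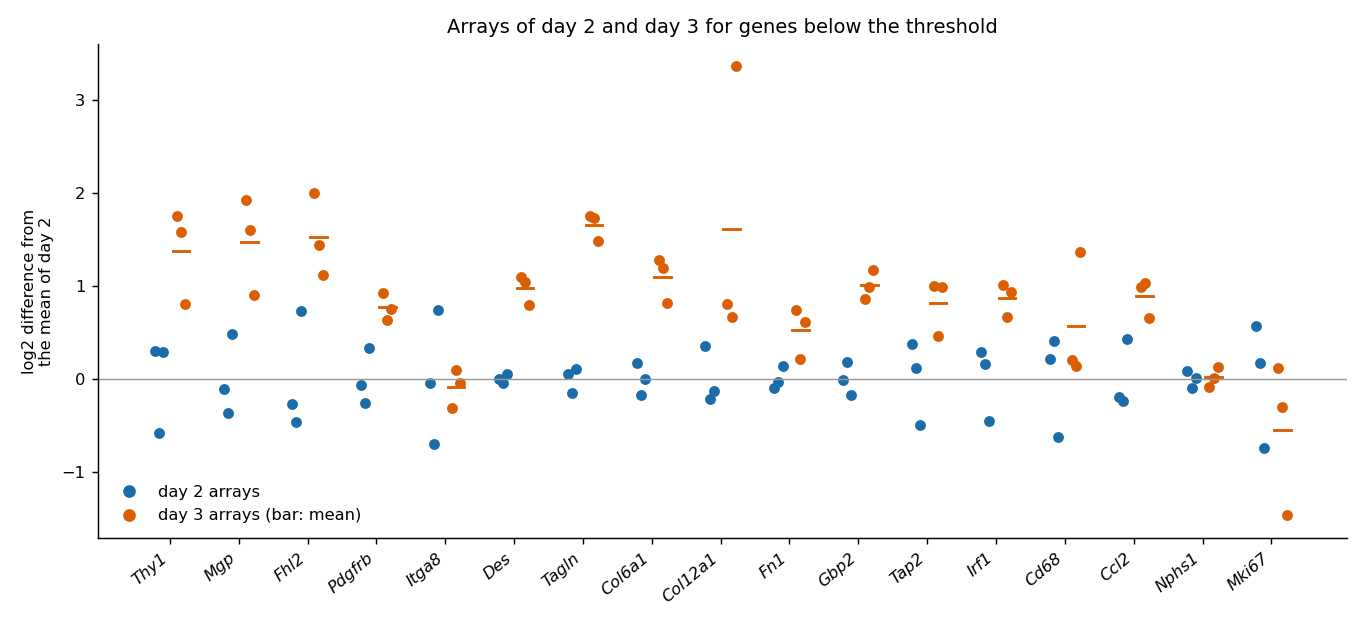
Levels of 17 genes that did not pass the threshold, as the log2 difference of each array from the mean of day 2 (y axis), for the 3 day 2 arrays and the 3 day 3 arrays of each gene (x axis); bars are day 3 means. The mesangial, contractile, matrix and interferon genes drawn, from Thy1 to Irf1, separated by day except Itga8, while Cd68, Nphs1 and Mki67 overlapped. Mgp, Fhl2, Des, Col6a1, Col12a1, Gbp2, Tap2 and Irf1 were named for a small p in their lists, which favours separation. In the whole lists, 8 of 17 mesangial, 6 of 11 contractile, 20 of 32 matrix and 19 of 25 interferon genes were higher without overlap. Col1a1, which is not drawn, overlapped.

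Of 28 measured mitosis genes, 22 were positive (median 0.31), 2 were higher without overlap (7.14%, against 12.8% of all genes) and 0 had an unadjusted p under 0.05. The proliferation marker Mki67 stood at 3.18, 2.79 and 1.87 on day 2 and at 2.74, 2.31 and 1.14 on day 3 (-0.55 ± 0.68, adjusted p = 0.814), and cyclin B1, Ccnb1, at 1.11, 1.13 and 0.72 and then at 2.33, 2.15 and 1.33 (0.95 ± 0.85, 0.717). The 2 genes thus stood on opposite sides, and on each day replicate 4 was the lowest for both. In day 3 minus day 1, by contrast, all 28 mitosis genes were positive, with a median of 2.41, and the difference between day 2 and day 1 had a median of 2.12. Of 29 DNA replication genes, 14 were positive (median -0.03) and 1 was higher without overlap, with the ribonucleotide reductase subunit Rrm1 at 0.47 ± 0.37 and the licensing factor Cdt1 at -0.47 ± 0.56.

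Podocyte markers had a median of -0.07 over 27 genes (0.02 without day 2 replicate 4), with 4 higher and 3 lower without overlap. These shares, 14.8% and 11.1%, were near the 12.8% and 10.1% of all genes. Nephrin, Nphs1, of the slit diaphragm, stood at 4.81, 4.64 and 4.74 on day 2 and at 4.65, 4.74 and 4.86 on day 3 (0.02 ± 0.21, adjusted p = 0.987). Its groups overlapped, and its sign turned with the processing (-0.08 with scaling to the reference genes). Efnb1, a slit diaphragm ephrin, stood at 1.95, 1.91 and 1.92 on day 2 and at 1.35, 1.26 and 0.59 on day 3 (-0.85 ± 0.21, 0.118), and at -0.78 in the outside arrays. Endothelial markers were positive in 24 of 27 (median 0.27), with 3 higher without overlap (11.1%, against 12.8% of all genes). Pecam1, an adhesion molecule of endothelial junctions, stood at 0.28, -0.41 and -0.79 on day 2 and at 0.01, -0.19 and -0.42 on day 3 (0.11 ± 0.35), and at -0.13 without day 2 replicate 4. Adgrl4, an endothelial adhesion receptor, differed by 0.59 ± 0.33 without overlap.

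**Figure D5:**
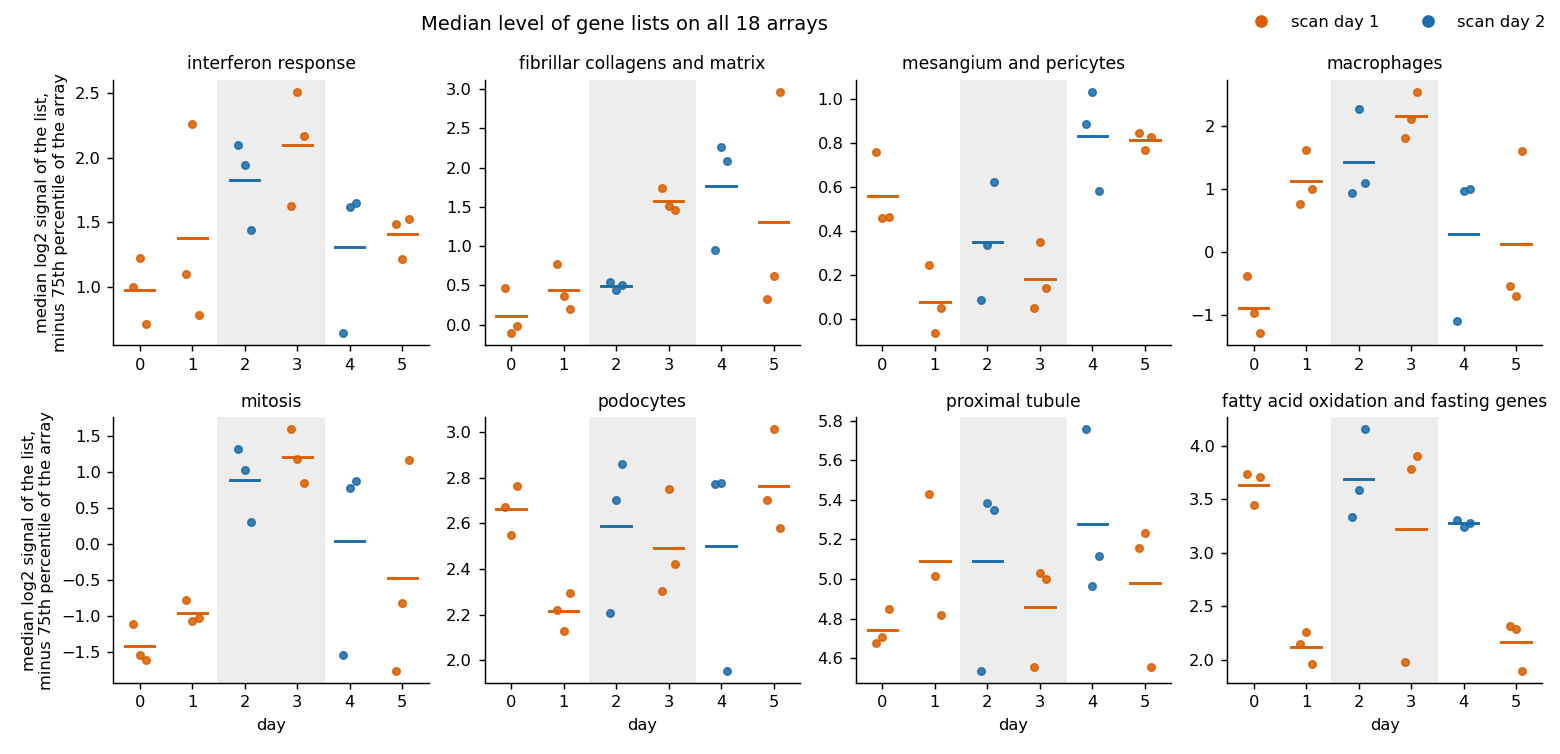
Median level of 8 gene lists on each of the 18 arrays (y axis, log2 signal minus the 75th percentile of the array) by day (x axis), with bars for day means, colours for the scan day and grey shading for the days compared. The matrix list separated day 3 (1.47 to 1.75) from day 2 (0.44 to 0.54), and in the list of fatty acid oxidation 1 day 3 array stood at 1.98 and the others at 3.78 and 3.91.

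Of 24 markers of the proximal tubule, 1 was positive (median -0.38), and 2 were lower without overlap (8.33%, against 10.1% of all genes). Lrp2, the endocytic receptor megalin, stood at 6.03, 6.34 and 6.55 on day 2 and at 5.59, 5.81 and 5.96 on day 3 (-0.52 ± 0.29, adjusted p = 0.531). The summed level of the list, on the log2 scale, lay between 10.63 and 11.10 on day 2 and between 10.15 and 10.89 on day 3. Of 19 markers of the loop, distal tubule and collecting duct, 6 were positive (median -0.09, and 0.01 without day 2 replicate 3 or without day 2 replicate 4), with the sodium chloride cotransporter Slc12a3 at -0.80 ± 0.27 (0.255). The list of fatty acid oxidation and fasting genes had 1 positive member of 24 (median -0.45), and again 2 were lower without overlap (8.33%). Its values turned on 1 array. The fasting regulator Creb3l3 stood at 1.86, 1.43 and 2.18 on day 2 and at -2.83, 1.31 and 1.67 on day 3 (-1.78 ± 0.78, 0.415), and the peroxisomal enzyme Ehhadh at 3.05, 3.41 and 3.75 and then at 0.01, 3.1 and 3.23. Pck1, of gluconeogenesis, showed the same low value in day 3 replicate 2 (4.19, against 6.33 and 6.49). Without that array the median of the fatty acid list was -0.08 and that of the proximal tubule -0.15. Ppara, the receptor that drives fatty acid oxidation, was lower on all 3 day 3 arrays (-1.14 ± 0.37, 0.242).

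The 7 measured platelet genes had a median of -0.43, with 0 lower without overlap, against 10.1% of all genes, and 0 with an unadjusted p under 0.05 in limma. In the outside arrays their median was 0.63, with all 7 positive. Among them were the platelet receptor Clec1b at -0.61 ± 0.60 and Treml1 at -0.67 ± 0.53. Of 6 red cell genes, 2 were positive (median -0.49, and 0.38 in the outside arrays), and 1, Ahsp, the chaperone of alpha globin, was lower without overlap (-0.67 ± 0.35, adjusted p = 0.503). Their part in the other results was not tested.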

How the data were processed

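RNA from glomeruli was labelled with Cy3 and read on 18 Agilent arrays, per the labels. Per the file headers, the authors made the intensity values with Feature Extraction 10.7.3.1, which subtracts background and detrends within an array, with no scaling between arrays; the headers name genome build rn4, and no positions were used. The deposited value table holds log2 values that share their quantiles within days 0, 2 and 4 (median 5.49) and within days 1, 3 and 5 (median 5.309). Days 2 and 3 lie in different sets, so it was not used for the comparison.

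From the intensities, log2 processed signal was computed, with the 75th percentile over an array's gene spots subtracted, leaving out outlier spots (85 to 125 on each of the 6 arrays). A probe entered if well above background on all 3 arrays of at least 1 day (27834 of 41012 probes). Of all probes, 18028 took their name in the RefSeq rat genes from the target accession, 467 through a different one, 2904 through the current symbol and 390 through a former symbol. The files' name was kept for 19223. A gene was its probe with the highest mean over all arrays (23184 genes, 12277 with a current symbol). The 6 days were fitted together with limma 3.58.1 (lmFit, eBayes) in R 4.3.3, on data with 57 missing values, none in the genes named. Adjusted p is Benjamini-Hochberg over all genes, with a threshold of 0.05, and errors are standard errors of the fit (SE). The fit was tested on simulated data. The number of arrays limits the precision.

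Named genes are the 15 largest rises and falls with a current symbol and no overlap among those past the threshold (10 rises had one), members of the lists past it or otherwise up to 4 with the smallest p, and a set of 13 glomerular and inflammatory genes; 148 of 149 were measured, 43 with several probes, which differed in sign in 11. Results for some named genes are not reported here. The comparison, the lists and the rule were chosen with earlier results of these data known.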

Additional observations from a re-analysis of the deposited data

How the results depend on the processing

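All 75 genes kept their direction under every alternative in which they were measured (49 of them with a filter of well above background on all 6 arrays), but the counts moved. For fits that kept the levels and changed only the arrays used or their weights, the lack of overlap fixed the direction beforehand. Against 18 higher and 57 lower, scaling to the reference genes gave 16 and 152 and moved the median of all genes to -0.10, quantile normalization gave 17 and 33, no filter on dim probes 12 and 34, that filter on all 6 arrays 11 and 22, a fit of the 6 arrays alone 20 and 15, and array weights 923 and 865, with all 75 among them. Normexp background correction gave 0 and 2 (481 genes with an unadjusted p under 0.05); its fit collapsed on 2 arrays of other days (an interquartile range of 0.157 and 0.251 log2 units, against 1.78 to 2.81), and without these it gave 23 and 40. Scaling to 7 spike-in probes gave 5 and 10. The last 2 settings were chosen after seeing the data. Leaving out 1 array gave 1 to 20 higher and 6 to 50 lower. Except for normexp and the left-out arrays, the cause was not tested. The other alternatives (median scaling, the 15 arrays after the antibody, slide as a random block, mean of probes, intensity trend) gave 16 to 22 higher and 41 to 67 lower.

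Days 2 and 3 share the replicate numbers 2, 3 and 4. Deviations of same-numbered arrays correlated at 0.0504, -0.0236 and 0.142, and not every array correlated best with its own number, so the numbers were not taken to pair arrays. With the number as a replicate block in a fit of the 6 arrays, limma passed 0 genes higher and 0 lower (smallest adjusted p 0.0744; 3523 with an unadjusted p under 0.05).

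Among named genes below the threshold, signs turned for Itga8 (0.014 with normexp, with or without the collapsed arrays, 0.015 with array weights, 0.14 with the mean of probes), Nphs1 (-0.038 with quantile normalization, -0.084 with the reference genes) and Cdkn1b (0.016 with the mean of probes). Leaving out 1 array gave -0.44 to 0.28 for Itga8, -0.039 to 0.068 for Nphs1, -0.16 to 0.66 for S100a9, -1.70 to 0.26 for Camp, -0.16 to 0.99 for Col1a1, -0.13 to 0.40 for Pecam1 and -0.055 to 0.76 for Retnlg. The medians of the interferon list (0.64 to 0.96), the matrix list (0.49 to 0.68), the mesangial list (0.22 to 0.49) and the macrophage list (0.47 to 0.85) kept their sign under all alternatives, while those of 10 lists, each with a median between -0.09 and 0.11, turned sign under at least 1. A probe not well above background gives only a bound.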

Other observations

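Growth factors and their receptors had a median of 0.13 over 32 genes, with 10 higher and 2 lower without overlap. Edn1, the vasoconstrictor endothelin, stood at -0.13, 0.03 and -0.64 on day 2 and at 1.02, 1.18 and 0.57 on day 3 (1.17 ± 0.37, adjusted p = 0.216), and Angpt2, an antagonist of the endothelial Tie2 receptor, at 0.51, -0.04 and 0.61 and then at 1.37, 1.48 and 1.28 (1.01 ± 0.43, 0.4). Both separated by day, which their being named for a small p favours. Edn1 was higher in the outside arrays too (0.75) and Angpt2 lower (-1.85). Inhbb, an activin subunit, differed by 0.99 ± 0.31 and Fgf2, a mitogen of mesangial cells, was at least 1.98-fold higher (not well above background on day 2), each with a second probe of the opposite sign (-0.33 for both). Of 16 apoptosis and p53 target genes, 5 were higher and 0 lower without overlap (median 0.19), with the pore-forming Bak1 at 0.68 ± 0.25. Of 14 G1 cyclins and Cdk inhibitors, 3 were higher and 1 lower (median 0.02), with the G1 kinase Cdk4 at 0.52 ± 0.20. Of 35 genes of the cytosolic ribosome, 31 were positive (median 0.18) and 7 higher without overlap.

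Stress genes were mixed. Of 19 heat shock and unfolded protein genes, 2 were lower without overlap (median 0.00). The chaperone Hsph1 stood at -1.08, -0.70 and -0.93 on day 2 and at -1.65, -1.54 and -1.74 on day 3 (-0.74 ± 0.20, adjusted p = 0.142), and at -1.12 in the outside arrays; Hspa8 differed by -0.85 ± 0.27 and by -0.71 there. Of 14 genes of oxidative stress and heme, 4 were higher and 2 lower (median -0.05), with the peroxiredoxin repair enzyme Srxn1 at 0.98 ± 0.27 (0.164) and the glutathione transferase Gsta2 at -0.76 ± 0.19 (0.13), which stood at 0.72 and -0.70 in the outside arrays. Of 21 immediate early genes, 5 were lower and 0 higher without overlap (median -0.07). Fos stood at -0.08, -0.01 and 0.64 on day 2 and at -1.09, -1.50 and -1.34 on day 3 (-1.50 ± 0.86), and Zfp36, which destabilises cytokine mRNAs, differed by -1.58 ± 0.64 (0.358). The lists of hypoxia and glycolysis (23 genes), basement membrane (14) and oxidative phosphorylation (32) had medians of -0.02, -0.04 and -0.06, with 2, 3 and 1 genes higher and 0, 3 and 5 lower without overlap. The 12 reference genes had a median of 0.16, with Actb at 0.53 ± 0.18.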
